A study of Homo sapiens with 10 samples.

Results

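The transcriptional end of the Hippo pathway is made of YAP1 and its relative TAZ (gene WWTR1), the TEAD transcription factors and the VGLL proteins. The 9 genes described are YAP1, WWTR1, TEAD1, TEAD2, TEAD3, TEAD4, VGLL1, VGLL3 and VGLL4. They were taken as every probe set (the group of short probes that reads a transcript on an Affymetrix array) whose platform annotation gives only that gene, matched by gene identifier. This gave 23 probe sets of 54675 in all, and 9 of 19775 genes. RNA came from HuCCT1, an established cell line of human bile duct cancer, and was hybridised to 10 arrays, 5 of cells with an empty vector and 5 of cells with a construct labelled YAPS94A. The sample labels give the substitution S94A and the series' design text gives S127A, and the arrays do not read which one was present. The promoter of the construct, the time after transfection and whether cells were pooled or cloned are not given in the sources used here. The line itself is common to both groups, and the cells also keep their own YAP1 gene. The labels do not say whether the arrays of a group stand for separate cultures. Each p-value therefore covers only array-to-array spread, and that spread may be technical.

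YAP1 and TAZ do not bind DNA themselves. They enter the nucleus when the Hippo kinases MST and LATS are inactive, and there they bind a TEAD protein, which holds the DNA, and switch on genes for growth, adhesion and matrix. The serine replaced in S94A lies in the TEAD-binding region of YAP1, and the one replaced in S127A is phosphorylated by LATS. VGLL proteins bind the same surface of TEAD as YAP1, and VGLL4 is known for displacing YAP1 from it. In the liver and bile duct YAP1 is known for its part in biliary cell identity and in bile duct cancer.

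The deposited values are log2 signals, so a difference of 1 is a doubling of signal. Each difference is the YAPS94A mean less the empty vector mean, given ± its standard error (SE), and a call means an adjusted p below 0.05 from limma over all 54613 probe sets that are not controls. YAP1, VGLL1 and VGLL4 were higher with the construct, a dimmer VGLL3 probe set was lower, and no bright probe set of a TEAD gene passed the test. Of the 23 probe sets 7 were called higher (30.4%), 2 lower (8.70%) and 14 neither. Over all probe sets 13.9% were called higher and 14.7% lower, 28.6% together. Calls were commoner on bright probe sets, and most member probe sets were bright. With only probe sets above the median level tested, 47.9% were called, and of 19 member probe sets 7 were higher and 1 lower. Above the lower quartile 36.9% were called, and of 21 member probe sets 7 were higher and 1 lower. With each gene read by its brightest probe set, 3 of 9 genes (33.3%) were called, all higher, against 34.4% of all genes (17.8% higher, 16.6% lower). The share of genes called thus lies near the background. The same 3 genes had all construct arrays above all empty vector arrays, against 15.3% of all genes (29.1% without overlap in either direction). None of the 23 probe sets differed by 2-fold, and the median size of their differences was 0.145 against 0.093 over all probe sets. The arrays of the vectors did not overlap for 8 probe sets, 7 with the construct above and 1 below (34.8%, against 23.0% of all probe sets). The backgrounds of 0.093 and 23.0% are not matched for brightness. Probe sets of a gene read the same transcripts and are not independent. A signal cannot be ranked against that of another probe set, so levels are compared only within a probe set.

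**Figure D1:**
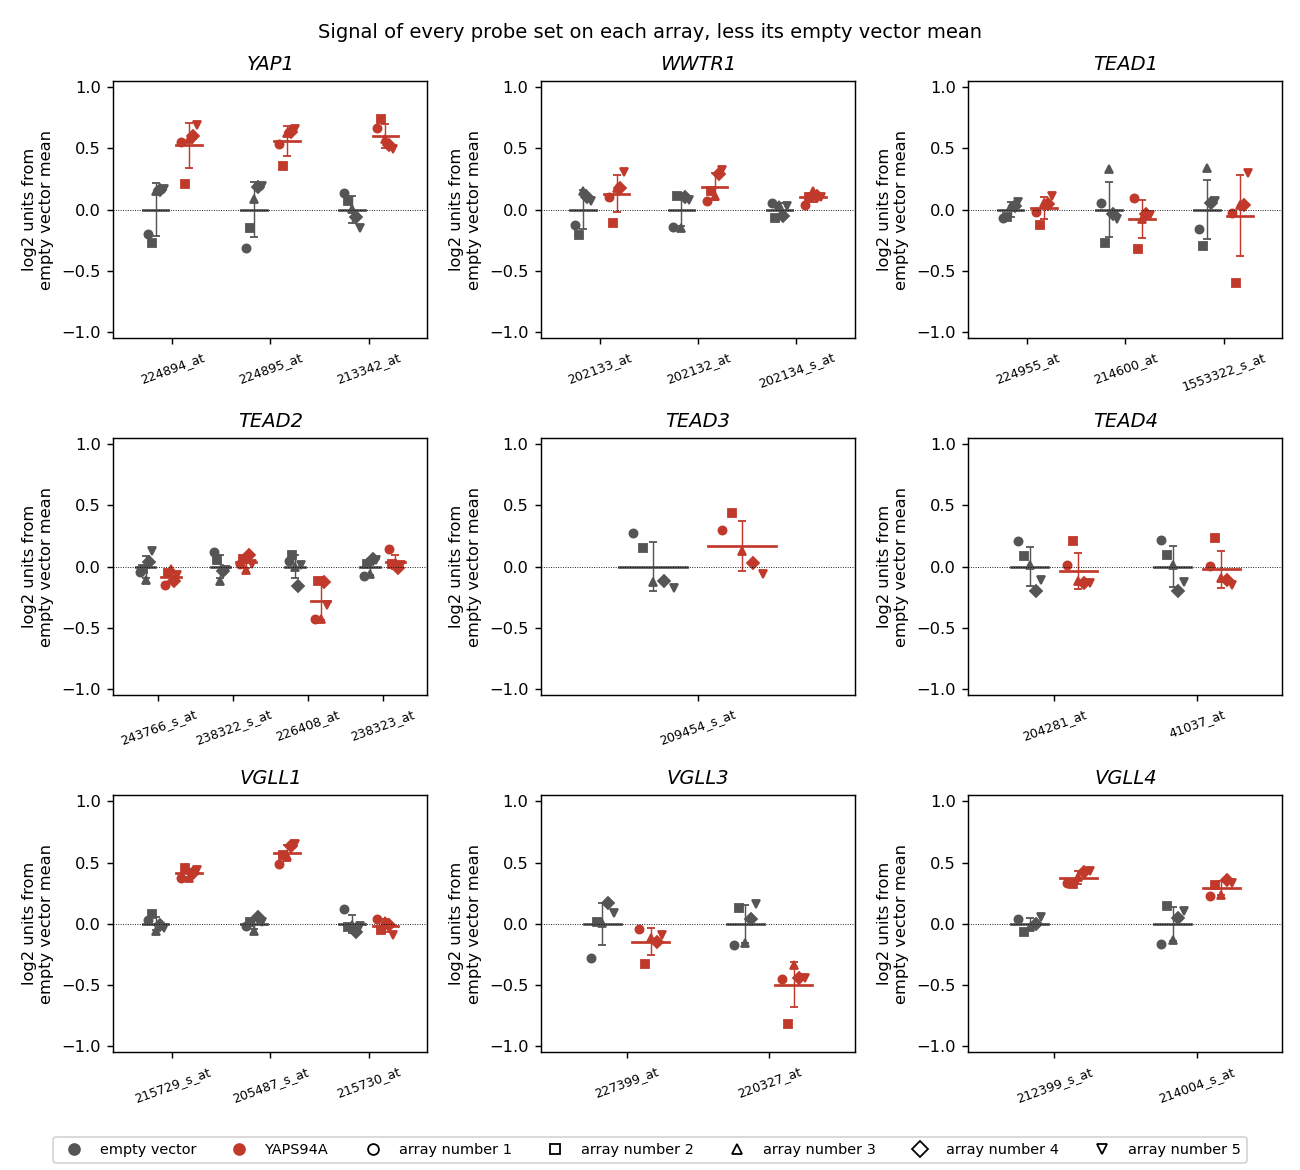
The signal of each of the 23 probe sets on each array, less the mean of its 5 empty vector arrays (vertical axis, log2 units), by gene and probe set (horizontal axis, brightest probe set first). Grey is empty vector, red is YAPS94A, marker shape is the array number in the labels, bars are the mean and SD. The red points lie above all grey points for the 3 YAP1, 2 VGLL1 and 2 VGLL4 probe sets called higher, and below them for the dimmer VGLL3 probe set.

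Markers of the labelled cell type and of others were compared between the vectors, each on its own probe set and as the summed signal of a list. A sum is weighted toward the brightest probe sets of its list. Of 8 markers of biliary epithelium 6 were called higher with the construct, the cytokeratins KRT7, KRT8, KRT18 and KRT19 by 0.134 to 0.331, CDH1 (E-cadherin) by 0.169 ± 0.035 and MUC1, a mucin, by 3.29 ± 0.062 (from 9.52 to 12.81, limma adjusted p = 1.33e-11). EPCAM and SOX9 did not pass. The summed signal of all 8 (log2) was 16.27 to 16.31 with empty vector and 16.54 to 16.57 with the construct. The summed signal of 7 fibroblast markers was 9.79 to 10.06 and 11.10 to 11.32. Only LUM (lumican) was called among these 7 fibroblast markers, at 2.67 ± 0.088, while COL1A2 read 5.23 in both groups and COL3A1 4.6 in both. The sum of 5 leukocyte markers was 8.14 to 8.29 and 7.75 to 7.83. LYZ was the only one of them called, at -1.48 ± 0.12. Sums of 5 endothelial markers (7.34 to 7.43 and 7.22 to 7.45) and 5 hepatocyte markers (8.0 to 8.08 and 8.01 to 8.14) overlapped between the vectors. The part of these markers in the results was not tested. In bulk RNA, fewer cells of a type and less RNA per cell cannot be told apart. Control probe sets at the 3′ and 5′ ends of ACTB, whose difference grows as RNA is shorter or less fully copied, differed by 0.84 to 1.51 with empty vector and by 0.76 to 1.43 with the construct. The arrays numbered 1 and 2 held the highest value in each group.

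The promoters of these genes were searched for the 6-letter core of the MCAT element, GGAATG, the sequence TEAD proteins are known to bind, on both strands (CATTCC on the other). The windows were the 250 bases before each RefSeq start (GRCh38.p14). The search covered 13 windows of 7 genes and left out TEAD1 and TEAD4. YAP1 and VGLL1 held 1 match each, 162 and 157 bases before the start, and the other 11 windows, 5 of them of VGLL4, held none. The core stands in 11.9% of 35116 windows of the same length, so a match describes the letters only, and binding was not measured. Both windows with a match are shown 5′ to 3′ on the strand of the gene, with the core in capitals, YAP1 at chr11:102110197-102110446 (+) and VGLL1 at chrX:136531965-136532214 (+), because these genes rose and carry it.
YAP1: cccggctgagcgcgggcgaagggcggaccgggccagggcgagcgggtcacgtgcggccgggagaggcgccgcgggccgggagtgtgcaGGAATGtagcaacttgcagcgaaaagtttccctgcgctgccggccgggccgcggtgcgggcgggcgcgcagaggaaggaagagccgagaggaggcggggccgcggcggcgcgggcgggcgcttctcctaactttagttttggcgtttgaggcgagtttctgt
VGLL1: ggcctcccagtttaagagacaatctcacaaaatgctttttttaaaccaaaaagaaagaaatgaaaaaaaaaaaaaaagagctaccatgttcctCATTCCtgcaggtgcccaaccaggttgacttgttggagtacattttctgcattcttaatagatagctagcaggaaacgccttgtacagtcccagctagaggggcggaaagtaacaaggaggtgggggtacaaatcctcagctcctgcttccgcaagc
YAP1 carries the core as GGAATG on its own strand and VGLL1 as CATTCC, which is the core on the other strand.

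YAP1 was read by 3 probe sets, and on each the construct arrays lay above the empty vector arrays. On 224894_at, the brightest, the empty vector arrays 1 to 5 read 12.12, 12.05, 12.47, 12.48 and 12.49 and the construct arrays 12.87, 12.53, 12.90, 12.92 and 13.01. The lowest construct array stood only 0.04 above the highest empty vector array, because construct array 2 was low among its group. On 224895_at the empty vector arrays read 11.94, 12.10, 12.34, 12.44 and 12.45 and the construct arrays 12.79, 12.61, 12.88, 12.89 and 12.91, a gap of 0.16. On 213342_at the values were 11.40, 11.33, 11.27, 11.20 and 11.11 with empty vector and 11.93, 12.00, 11.84, 11.79 and 11.76 with the construct, a gap of 0.36. The array numbers ran in opposite ways on these probe sets. Empty vector arrays 1 and 2 and construct array 2 were the lowest of their groups on 224894_at and 224895_at, and the highest or next to it on 213342_at.

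The differences were 0.52 ± 0.11 (adjusted p = 0.00384), 0.56 ± 0.10 (adjusted p = 0.00121) and 0.60 ± 0.065 (adjusted p = 2.12e-05) in that order, or 1.44-fold, 1.47-fold and 1.52-fold, with limma over all probe sets. The exact permutation test (two-sided) gave 0.0079 for each, its lower limit with 5 arrays a group. The differences did not diverge between probe sets beyond the spread of the arrays (0.037 and 0.081 from the brightest, exact permutation p = 0.48 and 0.67). Deviations of 213342_at ran against those of the brightest (r = -0.86), which widens that spread. For this pair the test could therefore miss a divergence. With the ACTB 3′ minus 5′ value of each array as a covariate, chosen after seeing the data, the differences were 0.45 ± 0.065, 0.49 ± 0.049 and 0.65 ± 0.032. Whether these values diverge between probe sets was not tested. Where each probe set lies in the transcript is not in the annotation used here, so signal from the construct and from the cells' own YAP1 gene cannot be told apart.

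The genes beside YAP1 on its chromosome were also higher. Of the 30 nearest genes above the median level of all genes, 19 were called higher and 3 lower, with a median of 0.264 and quartiles of 0.053 and 0.408. The nearest on either side were CFAP300 at 0.40 and BIRC2, an inhibitor of apoptosis, at 0.154. YAP1 stood above 24 of the 30. Over all genes 34.4% were called (17.8% higher, 16.6% lower), but calls were commoner on bright probe sets. The share called over all genes above that level was not counted, here or for the neighbours of other members. How widely neighbour medians spread over all genes was not described either. Relative to the neighbour median the probe sets were at 0.259 (adjusted p = 0.0903), 0.296 (adjusted p = 0.0372) and 0.34 (adjusted p = 0.00139). The brightest no longer passed while the others did. These p-values come from a t test with limma's SE of the probe set. The median is taken there as fixed, so the spread of the neighbours is left out.

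**Figure D2:**
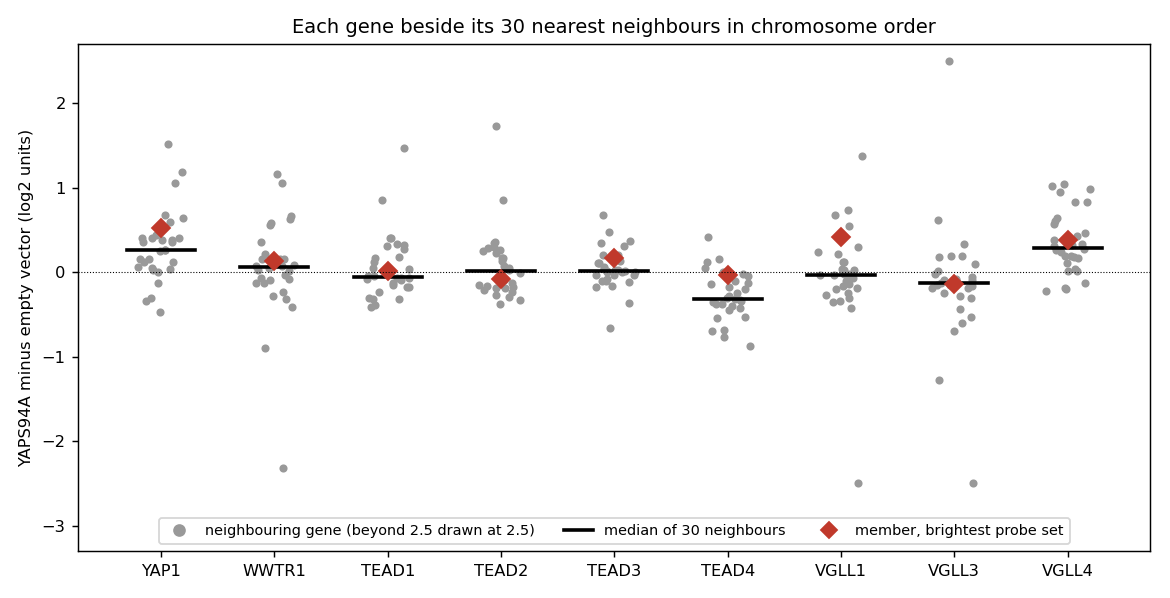
YAPS94A minus empty vector in log2 units (vertical axis) for each of the 9 genes by its brightest probe set (red diamond) and for its 30 nearest genes in chromosome order among genes above the median level (grey points, black bar their median). The neighbours of YAP1 and VGLL4 have medians of 0.264 and 0.288 and those of TEAD4 of -0.315, whereas those of VGLL1 have -0.038.

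WWTR1 encodes TAZ, the other co-activator. Its brightest probe set, 202133_at, read 11.72, 11.64, 12.00, 11.95 and 11.92 with empty vector and 11.95, 11.74, 12.02, 12.02 and 12.15 with the construct. The groups overlapped, and the difference was 0.13 ± 0.086 (95% interval -0.058 to 0.321, limma adjusted p = 0.315). The other probe sets, 202132_at and 202134_s_at, differed by 0.19 ± 0.071 (adjusted p = 0.0718) and 0.098 ± 0.039 (adjusted p = 0.0912), also with overlap. All 3 differences had the same sign, and the mean of the 3 probe sets passed the test over genes (0.14 ± 0.045, adjusted p = 0.0293). By its brightest probe set WWTR1 had no call in the 23 alternatives run on probe sets. On 202132_at it passed when the GAPDH 3′ minus 5′ value was a covariate (adjusted p = 0.00228), and on 202134_s_at with array weights (adjusted p = 0.0492).

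TEAD1, TEAD2, TEAD3 and TEAD4 are the DNA-binding partners. TEAD1 on 224955_at read 11.75 to 11.88 with empty vector (median 11.85) and 11.69 to 11.93 with the construct (median 11.86). The interval of its difference was -0.099 to 0.122, which leaves out changes as large as that of YAP1. Its other probe sets, at -0.08 ± 0.11 and -0.05 ± 0.16, spread more widely (intervals -0.314 to 0.152 and -0.395 to 0.299). TEAD4 on 204281_at read 11.96, 11.84, 11.76, 11.55 and 11.64 with empty vector and 11.76, 11.96, 11.63, 11.62 and 11.62 with the construct. Its groups overlapped almost wholly, with an interval of -0.225 to 0.161. The second TEAD4 probe set, 41037_at, gave -0.218 to 0.174.

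The neighbours of TEAD4 were lower, 22 of 30 called lower and 1 higher, with a median of -0.315. TEAD4 stood above 24 of its 30 neighbours. Its probe sets were at 0.283 and 0.293 relative to that median (t test with limma's SE, adjusted p = 0.0239 and 0.0221). TEAD4 passed only in this alternative, in which its direction also turned. The median is again taken as fixed, without the spread of the neighbours.

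TEAD3 was read by 1 probe set, 209454_s_at, at 8.97, 8.85, 8.57, 8.58 and 8.52 with empty vector and 9.0, 9.14, 8.83, 8.73 and 8.64 with the construct. The groups overlapped (0.17 ± 0.11, interval -0.077 to 0.416, limma adjusted p = 0.32). The arrays with a high ACTB 3′ minus 5′ value read highest in both groups. With that value as a covariate TEAD3 was at 0.25 ± 0.047 (adjusted p = 0.00111). That covariate was chosen after seeing the data.

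TEAD2 was dim. Its brightest probe set, 243766_s_at, read 7.27 to 7.51 with empty vector (median 7.36) and 7.23 to 7.36 with the construct (median 7.31), an overlap with a difference of -0.085 ± 0.05 (interval -0.195 to 0.026). On 238322_s_at the difference was 0.04 ± 0.049 from 5.37. Its other probe sets, 226408_at and 238323_at, lay at or below the lower quartile of all mean signals (4.74). One of these, 226408_at, was called lower (-0.28 ± 0.074, adjusted p = 0.013) although its groups overlapped. Without the arrays numbered 1 and 2, with 3 arrays left in each group, the difference was -0.239 ± 0.084 (adjusted p = 0.075). No detection calls were used here, so whether this probe set reads TEAD2 above background was not tested.

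**Figure D3:**
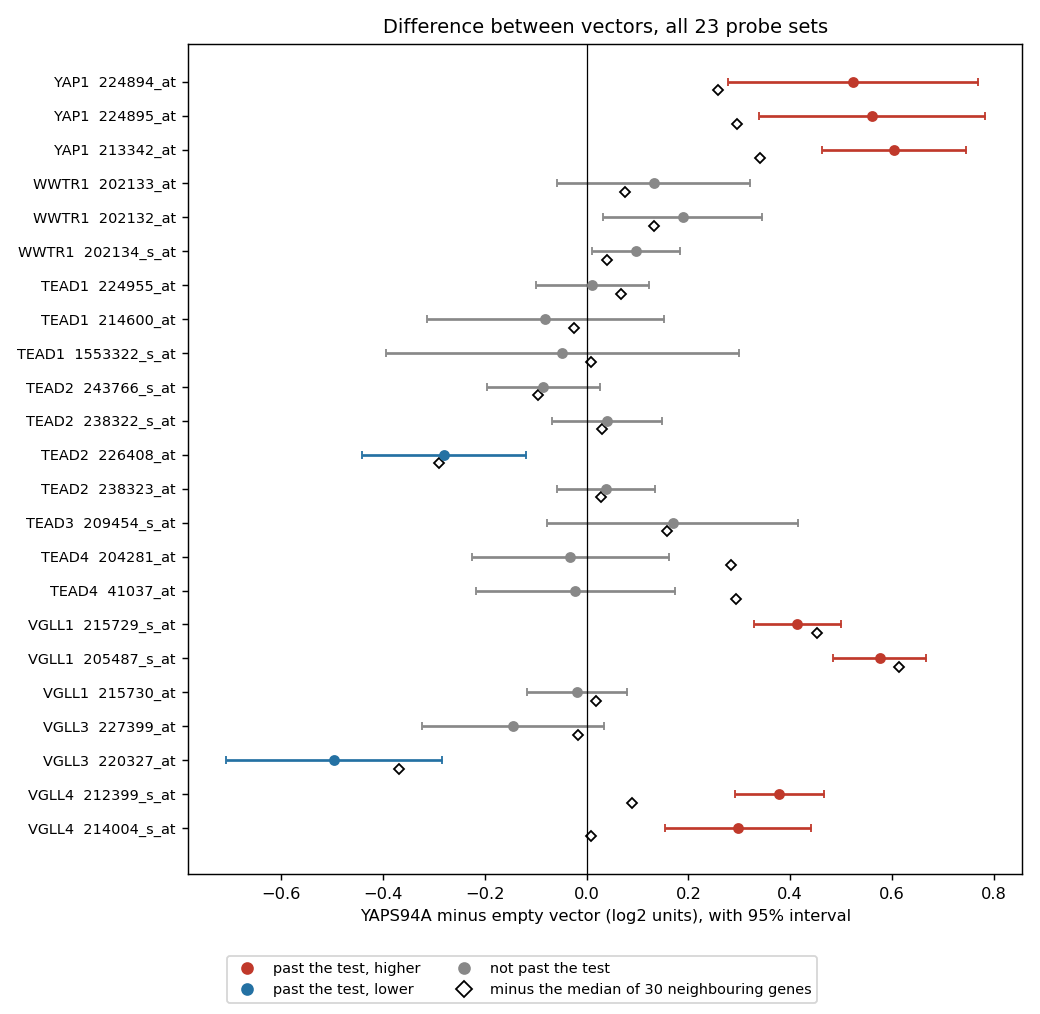
Difference between vectors in log2 units with its 95% interval (horizontal axis) for all 23 probe sets (vertical axis), coloured by limma's call, with the value relative to the median of 30 neighbouring genes as open diamonds. The TEAD intervals span 0 except for the dim TEAD2 probe set 226408_at, the VGLL1 values hardly move relative to neighbours, and the VGLL4 values move to 0.09 and 0.009.

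VGLL1, a TEAD-binding cofactor, rose on both of its bright probe sets. On 215729_s_at the empty vector arrays read 12.11, 12.16, 12.02, 12.07 and 12.05 and the construct arrays 12.46, 12.54, 12.46, 12.50 and 12.52. On 205487_s_at they read 10.41, 10.44, 10.37, 10.48 and 10.44, and 10.92, 10.99, 10.98, 11.06 and 11.08. The gaps between the groups, 0.30 and 0.44, were several times the spread within a group (SD 0.035 to 0.064, n = 5 each). The rises were 0.41 ± 0.039 (limma adjusted p = 7.32e-06) and 0.58 ± 0.041 (adjusted p = 7.52e-07), or 1.33-fold and 1.49-fold. The dimmer of these bright probe sets rose by more, by 0.162 (exact permutation p = 0.0079, 0.037 after Benjamini-Hochberg adjustment over 14 pairs of probe sets).

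The third VGLL1 probe set, 215730_at, read 4.93 and 4.91, little above the lower quartile of signals, and differed by -0.019 ± 0.045. Both bright probe sets of VGLL1 have identifiers ending in _s_at, which marks probes that can match more than 1 transcript, and 215730_at is the only one without it. The neighbours of VGLL1 had a median of -0.038, and relative to them the rises were 0.45 and 0.61. VGLL1 kept its call on both bright probe sets in every alternative that held them.

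VGLL4, the TEAD binder known for opposing YAP1, was higher on both of its probe sets. Both have identifiers ending in _s_at, so their probes can match more than 1 transcript, and VGLL4 had no other probe set. On 212399_s_at the empty vector arrays read 11.87, 11.76, 11.80, 11.83 and 11.88 and the construct arrays 12.16, 12.15, 12.21, 12.25 and 12.26. On 214004_s_at they read 8.56, 8.87, 8.59, 8.77 and 8.83, and 8.95, 9.04, 8.96, 9.08 and 9.06, a gap of only 0.09. The rises were 0.38 ± 0.04 (limma adjusted p = 1.9e-05) and 0.30 ± 0.065 (adjusted p = 0.00445), or 1.30-fold and 1.23-fold.

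The neighbours of VGLL4 rose with it. Of its 30 neighbours 23 were called higher and 2 lower, with a median of 0.288, and 11 stood above VGLL4. The nearest on either side, ATG7 and TAMM41, were at 0.465 and 0.375. Relative to the neighbour median the VGLL4 probe sets were at 0.09 (adjusted p = 0.0969) and 0.009 (adjusted p = 0.932), and neither passed. This t test too uses limma's SE and takes the median as fixed.

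VGLL3, a cofactor of the same family, gave unequal values on its probe sets. The bright one, 227399_at, read 10.75, 11.05, 11.04, 11.20 and 11.12 with empty vector and 10.99, 10.70, 10.92, 10.88 and 10.94 with the construct, with overlap. Its difference was -0.145 ± 0.082 (interval -0.324 to 0.035, limma adjusted p = 0.236). The dimmer one, 220327_at, read 6.43, 6.73, 6.44, 6.64 and 6.76, and 6.15, 5.78, 6.26, 6.16 and 6.16. There every construct array lay below every empty vector array, and VGLL3 fell by 0.50 ± 0.097 (adjusted p = 0.00201), 1.41-fold. The probe sets differed in their shift by -0.352 (exact permutation p = 0.0079, 0.037 over the 14 pairs). Empty vector array 1 was the lowest of its group on 227399_at, and without it that probe set passed too (-0.216, adjusted p = 0.0235). The bright VGLL3 probe set also passed with the ACTB covariate (adjusted p = 0.0196) and without the arrays numbered 1 and 2 (adjusted p = 0.024), both chosen after seeing the data. Of the 30 neighbours of VGLL3, 6 were called higher and 14 lower, with a median of -0.128. Relative to that median, taken as fixed, 227399_at was at -0.016 (t test with limma's SE, adjusted p = 0.898). The dimmer probe set was at -0.368 (adjusted p = 0.0101, same test).

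**Figure D4:**
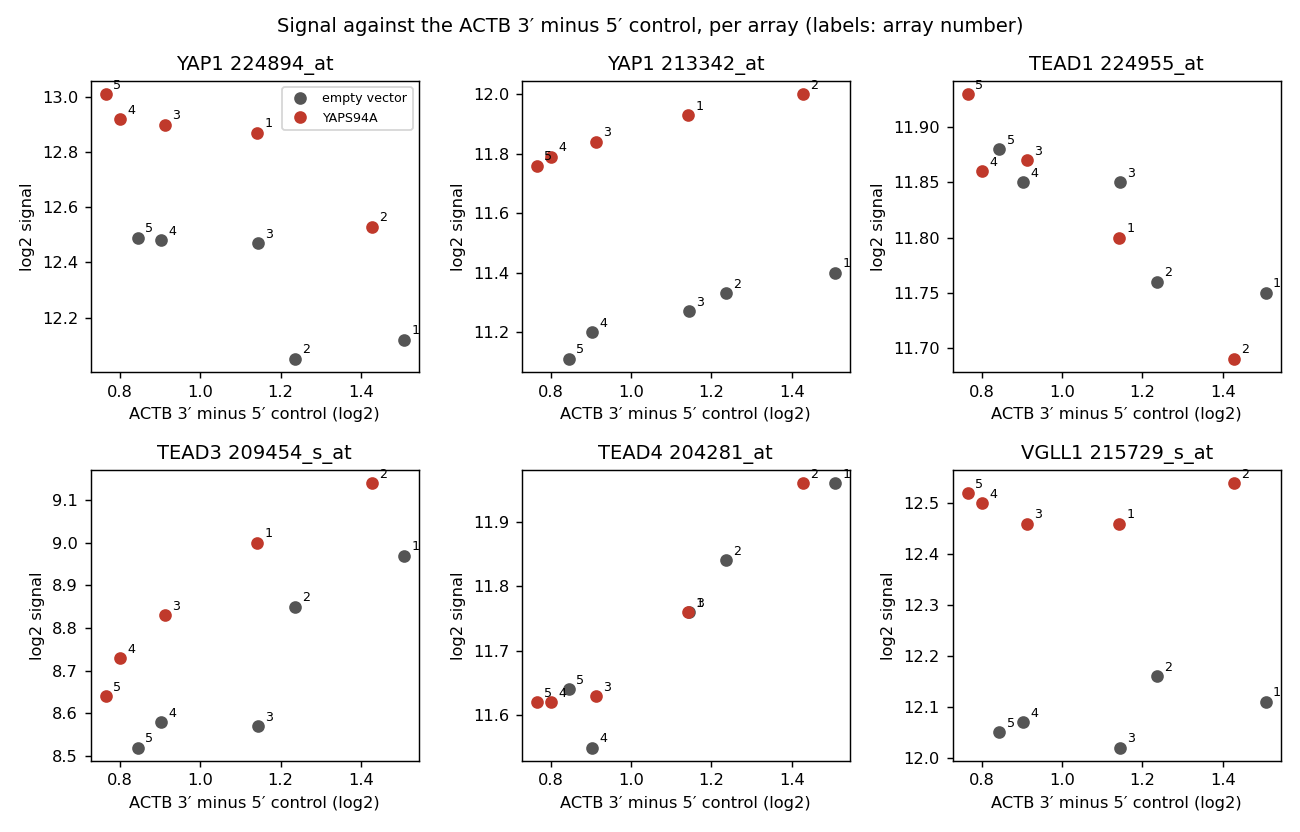
Log2 signal (vertical axes) of 6 member probe sets against the ACTB 3′ minus 5′ control difference of the same array (horizontal axes, log2 units), grey for empty vector, red for YAPS94A, with the array number beside each point. Within each vector YAP1 213342_at, TEAD3 and TEAD4 read higher and YAP1 224894_at and TEAD1 lower on arrays with a larger control difference. For YAP1 and VGLL1 the colours stay apart at every value, and for TEAD1 and TEAD4 they mix.

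The array-to-array pattern of YAP1 was shared by many genes. Deviations of the brightest YAP1 probe set from its group means were most like those of FAM135A, HIBADH, LMBRD2, ITCH and OTUD1, with Pearson r of 0.994 to 0.996 over 10 arrays among 9886 genes. Of these 9886 genes 14.8% had r above 0.8, so a looser likeness is common on these arrays. The share with r as high as that of the 5 named genes was not counted. The same YAP1 deviations had r of -0.857 with the ACTB 3′ minus 5′ value of the arrays. Between vectors, FAM135A (0.253, limma adjusted p = 0.0232) and LMBRD2 (0.449, adjusted p = 0.0365) were called higher. HIBADH (0.208, adjusted p = 0.0767), the ubiquitin ligase ITCH (0.119, adjusted p = 0.901) and the deubiquitinase OTUD1 (-0.055, adjusted p = 0.841) did not pass.

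Around these factors, genes of the pathway moved in both directions. Of 27 measured upstream kinases and scaffolds, 9 were called higher, 6 lower and 12 neither (55.6% called, against 34.4% of all genes), with a median of 0.01 against -0.004 over all genes. CRB3, a cell polarity protein, rose by 0.50 ± 0.041, SAV1, the scaffold of the MST kinases, by 0.51 ± 0.052, and AJUBA, which restrains LATS, by 0.47 ± 0.039. NF2, which encodes the tumour suppressor merlin, dropped by 0.55 ± 0.044, and its neighbouring genes had a median of -0.277. The core kinase genes did not follow 1 direction. STK3 rose by 0.17 ± 0.044 and LATS1 fell by 0.75 ± 0.13 among genes with a neighbour median of -0.337, while STK4 and LATS2 were at -0.133 and 0.084 and did not pass (adjusted p = 0.434 and 0.339). STK3, STK4, LATS1 and LATS2 were named after their values were seen.

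Of 22 genes that hold YAP1 and TAZ outside the nucleus, mark them or turn them over, 4 were higher, 4 lower and 14 neither (36.4% called, near the 34.4% of all genes), with a median of -0.018. SFN, the 14-3-3 sigma protein of the family that binds phosphorylated YAP1, went from 12.77 ± 0.043 to 13.39 ± 0.021 (SD, n = 5), a rise of 0.62 ± 0.035. AMOTL1, which is also 1 of the 30 neighbours of YAP1, rose by 0.41 ± 0.064 among genes with a neighbour median of 0.18. AMOT, its relative that also binds YAP1, fell by 0.81 ± 0.092 from 6.65 (neighbour median -0.026). CSNK1E, a casein kinase, fell by 0.79 ± 0.10. Of 28 other nuclear partners 6 were higher, 4 lower and 18 neither (35.7% called, also near the 34.4% of all genes), with a median of 0.018. RUNX2, a partner of YAP1 and TAZ, went from 12.09 ± 0.074 to 10.21 ± 0.057 (SD, n = 5), a 3.68-fold fall. ZEB1 and JUN, transcription factors known to act with YAP1 at enhancers, fell by 1.24 ± 0.059 and 0.60 ± 0.048, and NCOA2, a coactivator, rose by 0.57 ± 0.044.

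Of 21 TEAD-dependent targets 4 were higher, 1 lower and 16 neither (23.8% called, against 34.4% of all genes), with a median of 0.084. The one that fell was CCN2, by 1.48 ± 0.091, and RBMS3 (0.90 ± 0.12), NT5E (0.45 ± 0.036) and MYOF (0.25 ± 0.06) rose. By the mean of all probe sets of a gene these rises were smaller, 0.587, 0.236 and 0.185 in that order. The difference of CCN2 was the same by that mean. CCN2 is the standard readout of YAP1 and TEAD, and its neighbours had a median of -0.346.

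**Figure D5:**
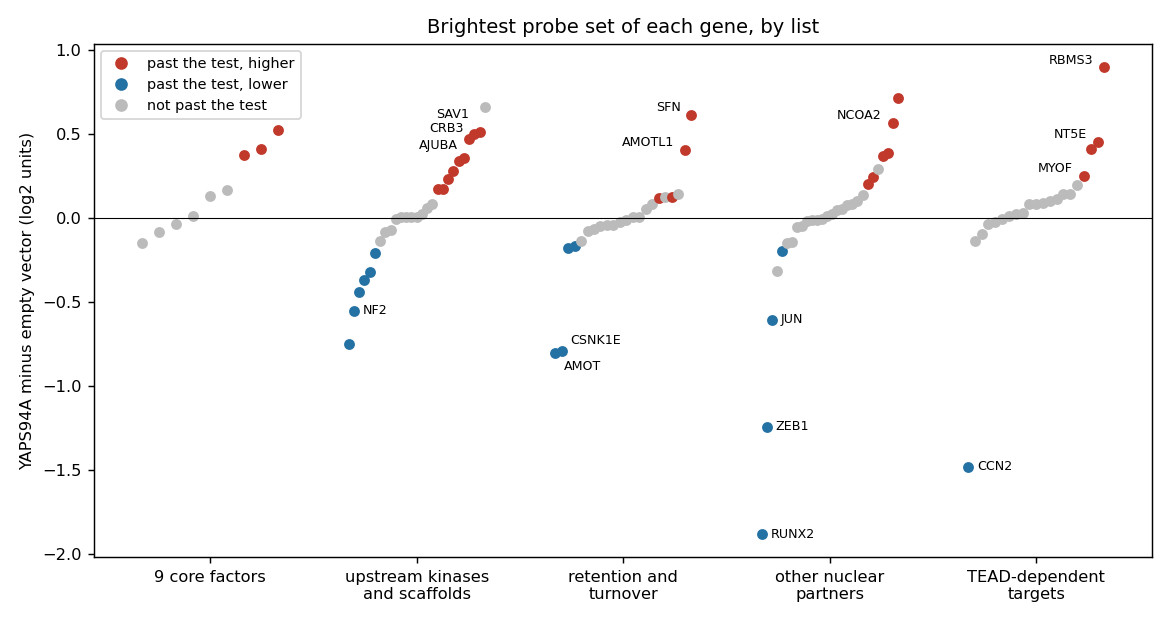
YAPS94A minus empty vector in log2 units (vertical axis) for the brightest probe set of each gene, in the 9 core factors and 4 lists of pathway genes (horizontal axis, genes ordered by value within a list), coloured by limma's call. The core factors lie between -0.145 and 0.523, a narrower range than that of nuclear partners, where RUNX2 is lowest at -1.88.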

How the data were processed

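RNA of 10 HuCCT1 samples was hybridised to Affymetrix arrays after NuGEN amplification and biotin labelling, per the labels' protocols. The authors deposited log2 signals per probe set. The sources used here do not give the method of summarisation or normalization. The deposited log2 values had array medians of 6.25 to 6.28 and were used as they are. The number of arrays limits the precision. Symbols come from the platform annotation, updated by Entrez identifier through RefSeq (GRCh38.p14), which held all 9 genes. The table also gave the order of neighbouring genes.

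The vectors were compared with limma 3.58.1 (R 4.3.3, lmFit and eBayes, no covariate, two-sided) over 54613 probe sets, 62 controls left out, with Benjamini-Hochberg adjustment. A gene of a list is read by its brightest probe set. Exact permutation tests used all 252 splits of the arrays. Named genes were all members, the 4 genes with the smallest p among those called in each of 4 lists, and the 5 genes most like YAP1 in their deviations. The members and lists were chosen with earlier results of these data known. Simulated data of 54613 probe sets gave 32%, 82%, 96% and 100% recovery of shifts of 0.25, 0.5, 1 and 2 log2 units (50 each), with 5 false calls. The simulated noise was independent between probe sets and few probe sets were shifted, unlike on the measured arrays. These rates therefore check the code only and do not give the recovery or false calls in the measured data. Same-numbered arrays were checked for pairing. Alternatives covered filters, normalization, variance models, the choice of probe set, RNA quality, neighbours and single arrays.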

Additional observations from a re-analysis of the deposited data

Results flagged for a closer look

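Of 46 groups of 5 arrays (23 probe sets in 2 vectors), 2 held 1 array far from the other 4 by Dixon's criterion, where chance gives about 1 in 20. VGLL3 on 220327_at read 5.78 on YAPS94A array 2, against 6.15 to 6.26 on the other construct arrays. Without that array its difference was -0.417 (limma adjusted p = 0.00167), within a range of -0.539 to -0.417 over the single arrays left out. TEAD2 on the dim probe set 238323_at read 4.53 on YAPS94A array 1, against 4.38 to 4.42 on the others.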

How the results depend on the processing

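Of the 25 alternatives, 23 could be run on every probe set kept by them and 2 only by gene. The YAP1 difference on its brightest probe set ranged from 0.259 to 0.601, was 0.454 to 0.601 with each array left out, and lost its call only relative to 30 neighbouring genes (0.259, adjusted p = 0.0903). Without _x_at and _s_at probe sets, 14 member probe sets were left, of which 3 were called higher and 2 lower. Of the 5 member genes left 1 was called higher. Of the other genes left, 5 of 17 upstream genes were higher, and 2 of 14 retention genes and 2 of 19 nuclear partners were lower. In that setting 26.1% of all probe sets tested were called in either direction. With only probe sets above the median or above the lower quartile, 1 member probe set was called lower. 1 member gene was called lower by the mean of probe sets, without the arrays numbered 1 and 2 and with the ACTB covariate (0 to 1 with each array left out), which was VGLL3. Of the targets, 2 were lower with probe sets above the median, both trend models, array weights, the GAPDH and ACTB covariates, the mean of probe sets, without the arrays numbered 1 and 2 (CCN1 beside CCN2) and relative to neighbours (ASAP1 beside CCN2), and 1 to 2 with each array left out. By the mean of probe sets 7 targets were higher, within a range of 3 to 7 over the alternatives. Without the arrays numbered 1 and 2, ANKRD1 was called higher (0.207, limma adjusted p = 0.0201) beside those of the main fit. The cause of these moves was not tested.

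Among member probe sets below the threshold, the sign turned with each array left out for TEAD1 (-0.015 to 0.046 on 224955_at, -0.15 to 0.003 on 214600_at, -0.136 to 0.09 on 1553322_s_at), TEAD4 (-0.092 to 0.021 and -0.086 to 0.03) and VGLL1 215730_at (-0.035 to 0.012). It also turned with the ACTB covariate for TEAD1 224955_at (-0.019) and TEAD4 (0.032 and 0.044), relative to neighbours for TEAD1 1553322_s_at (0.009), TEAD4 (0.283 and 0.293) and VGLL1 215730_at (0.019), without the arrays numbered 1 and 2 for TEAD2 238323_at (-0.007) and VGLL1 215730_at (0.004), and with array weights for the latter (0.004).

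The array numbers were treated as not pairing the arrays, because over the probe sets tested not every same-numbered pair correlated above 0.1. Over genes every pair did, so whether the numbers pair the arrays is not settled. Deviations of same-numbered arrays correlated at 0.0629 to 0.543 over the probe sets tested, above 0.1 in 4 of 5 pairs (0.102 to 0.59 over genes, 5 of 5), and 4 of 10 arrays correlated best with their own number. With the replicate number as a block in limma, 18259 probe sets were called in place of 15643. WWTR1 202132_at (adjusted p = 0.0111) and TEAD3 (0.169, adjusted p = 0.0274) passed, and no other member call changed. Of the targets, 2 were lower (CCN1 beside CCN2), and ANKRD1 was called higher (0.196, adjusted p = 0.00899) beside those of the main fit.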
